A study of Mus musculus with 4 samples.

Results

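Transcripts of 8 genes of fatty acid handling, Cyp4a10, Cyp4a14, Fabp1, Acaa1b, Pdk4, Cpt1a, Ehhadh and Elovl2, were followed in whole mouse kidney from mice with induced glomerulonephritis (GN), a disease in which the filtering units are inflamed. The genes were taken by name from the array's platform annotation, out of 12394 genes that it names. These genes and the gene lists used below were chosen with earlier results of these data known. A count of them set beside the share of all genes is therefore a description only. The 8 genes were read by 13 probe sets, of which 10 are annotated to 1 gene and 3 to 2 genes. Cyp4a10 has no probe set of its own here and is read only by one annotated to Cyp4a31 and Cyp4a10 together, so 7 of the 8 genes have a separate value. PPAR-alpha is a nuclear receptor that binds fatty acids and, paired with RXR, switches on genes for their uptake and oxidation. The proximal tubule of the kidney, which burns fatty acids for its transport work, is one of the tissues where this programme is active. Several of the genes studied here are known PPAR-alpha targets.

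Each of 4 groups is represented by 1 array, 4 in all. The mice were C57BL/6, labelled male and 17 weeks of age, and the tissue was whole kidney. Saline+Water mice were injected with 0.15 M NaCl and drank water. Saline+Captopril mice had the same injections and captopril at 100 mg/kg/day in the drinking water, which blocks angiotensin converting enzyme. GN+Water mice received 10 mg of horse spleen apoferritin, a foreign protein, on 5 days a week with 100 µg of lipopolysaccharide 3 times a week, and drank water. GN+Captopril mice received those injections and captopril. Injections ran for 6 weeks from about 8 weeks of age, and kidneys were taken after 9 weeks. Each group had 6 mice, and whether 1 mouse or a pool was hybridised to an array is not stated in the labels. With 1 array per group there is no replicate, so no value below has an error or a test, and every difference compares 2 arrays. In whole kidney, fewer cells of a type and less RNA per cell cannot be told apart.

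Both arrays of water-drinking mice stood apart from the rest. On the GN+Water-labelled array, Xist was at 8.97 (log2) against 5.02 to 5.21 on the others, and the Y-linked gene Eif2s3y at 3.43 against 8.02 to 8.29, which goes against its male label. On Saline+Water the median of 18 spike-in controls was 10.84, against 7.46 to 7.89 elsewhere. Of 8207 genes past the expression filter, 40.4% had their highest and 42.0% their lowest value on Saline+Water. The pair of Saline+Captopril and GN+Captopril is the only one that uses neither array, and the 8 genes are described in it as well. The tissue label was checked against 10 proximal tubule genes with a probe set, none of which was near background on any array. Their mean log2 level was 12.46 on Saline+Water, 12.40 on Saline+Captopril, 11.56 on the GN+Water-labelled array and 12.39 on GN+Captopril. On the GN+Water-labelled array 2 of them, Slc22a6 and the androgen-responsive Slc7a13, were at least 2-fold lower than on Saline+Water, against 4.42% of all genes. The difference was −6.01 log2 units for Slc7a13 and −1.93 for Slc22a6, beside a median of −0.23 over the 10 genes. The lower mean on that array rests mostly on these 2. A level is called near background when it does not exceed what 90% of the array's 27 negative controls stay under, a limit between 4.36 and 4.81.

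RefSeq promoter windows (build GRCm38.p6, 250 bases before to 50 after the start) were matched for 6 of the 8 genes, all but Cyp4a10 and Cyp4a14. Each was searched on both strands for AGGTCA, the core site of many nuclear receptors, and for the direct repeat that PPAR-RXR pairs are known to bind, 2 such cores in a row with 1 base of any kind between them, with up to 2 mismatches. A core site was found in 2 of the 7 windows of these genes, 1 of Fabp1 and 1 of Cpt1a, and in 16.3% of all 32851 windows. The direct repeat was found in 1 of the 7 windows, that of Fabp1, and in 3.86% of all windows; it overlaps a core site there. In Fabp1 the repeat has 1 mismatch, lies on the opposite strand and begins 67 bases before the start, and a further core site begins 9 bases before it. The last 150 bases before the start are shown for Fabp1 and for Elovl2, which had the same highest and lowest array, as described below. Capitals mark the matches, of which the Elovl2 stretch has none. Elovl2 has a further window with another start, whose stretch at chr13:41220163-41220312 is not shown and holds no match either. The Fabp1 stretch is chr6:71199729-71199878 on the plus strand and the Elovl2 stretch chr13:41220404-41220553 on the minus strand.
Fabp1: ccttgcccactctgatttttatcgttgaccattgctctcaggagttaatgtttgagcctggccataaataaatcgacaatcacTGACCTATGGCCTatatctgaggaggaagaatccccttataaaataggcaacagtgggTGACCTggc
Elovl2: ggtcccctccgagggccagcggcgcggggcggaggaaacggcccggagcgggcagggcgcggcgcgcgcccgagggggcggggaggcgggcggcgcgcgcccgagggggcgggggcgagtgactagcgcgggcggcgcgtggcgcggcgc

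The 8 genes fell into a group of 3 with a wide range over the arrays and a group with a narrow one. Cyp4a14, Fabp1 and Elovl2 spanned 2.95 to 3.21 log2 units between their lowest and highest array. Each was lowest on Saline+Water and highest on the GN+Water-labelled array. The probe sets of the other genes spanned 0.30 to 1.22 log2 units.

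Cyp4a14 encodes a cytochrome P450 that hydroxylates fatty acids at their far end, a first step of omega-oxidation, and is known to be more abundant in female mice. Its level was 8.33 (log2) on Saline+Water, 10.74 on Saline+Captopril, 11.48 on the GN+Water-labelled array and 9.85 on GN+Captopril. The GN+Water-labelled array was the highest, Saline+Captopril came next, and Saline+Water was the lowest by 1.51 log2 units. The probe set annotated to Cyp4a31 and Cyp4a10, which encode close relatives of the same enzyme, was at 12.33 on Saline+Water, 12.90 on Saline+Captopril and 12.60 on both GN arrays. It spanned 0.58 log2 units. The only probe set annotated to Cyp4a31 alone was at 7.05, 9.63, 8.84 and 9.47 on Saline+Water, Saline+Captopril, the GN+Water-labelled array and GN+Captopril. It spanned 2.59 log2 units, so probe sets of these near-identical genes differed in how far Saline+Water lay below the other arrays.

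Fabp1 encodes the liver-type fatty acid binding protein, which carries fatty acids in the cytosol and towards the nucleus. One probe set (1417556_at) was at 5.40 on Saline+Water, 7.04 on Saline+Captopril, 8.36 on the GN+Water-labelled array and 6.50 on GN+Captopril. The other (1448764_a_at) was at 4.74, 6.46, 7.95 and 6.12 in the same order and was near background on Saline+Water. Both probe sets put the 4 arrays in the same order. Elovl2 encodes an elongase that lengthens polyunsaturated fatty acids. It was at 6.39 on Saline+Water, 8.33 on Saline+Captopril, 9.58 on the GN+Water-labelled array and 8.33 on GN+Captopril. The arrays of both captopril groups were listed at the same value, as were 9.19% of all 8207 genes on this pair of arrays, so the 0 difference is no measure of precision.

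Acaa1b and Ehhadh encode enzymes of peroxisomal beta-oxidation, a thiolase and a bifunctional hydratase and dehydrogenase. Acaa1b was at 12.09 on Saline+Water, 12.77 on Saline+Captopril, 11.76 on the GN+Water-labelled array and 12.11 on GN+Captopril. Saline+Captopril was the highest and the GN+Water-labelled array the lowest. The 2 probe sets annotated to Acaa1b and its relative Acaa1a together had their highest and lowest values on the same arrays, over 0.94 and 0.69 log2 units against 1.01 for Acaa1b alone. Ehhadh was at 11.74, 12.09, 11.53 and 11.90 on Saline+Water, Saline+Captopril, the GN+Water-labelled array and GN+Captopril. It too was highest on Saline+Captopril and lowest on the GN+Water-labelled array.

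Cpt1a encodes the carnitine palmitoyltransferase that admits fatty acids to mitochondria, and its 3 probe sets did not order the arrays alike. The one with the highest signal (1460409_at) was at 11.52 on Saline+Water, 11.22 on Saline+Captopril, 10.91 on the GN+Water-labelled array and 11.30 on GN+Captopril. The second (1434866_x_at) was at 9.06, 9.56, 9.46 and 9.78 in that order of arrays. The third (1438156_x_at) was at 7.06, 7.54, 7.47 and 8.28. Saline+Water was the highest array for the first and the lowest for the other 2, so no direction can be given for Cpt1a in comparisons with Saline+Water. Pdk4, a kinase that blocks pyruvate oxidation when fat is burned, was between 7.0 and 7.30 on all 4 arrays, a span of 0.30 log2 units.

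**Figure D1:**
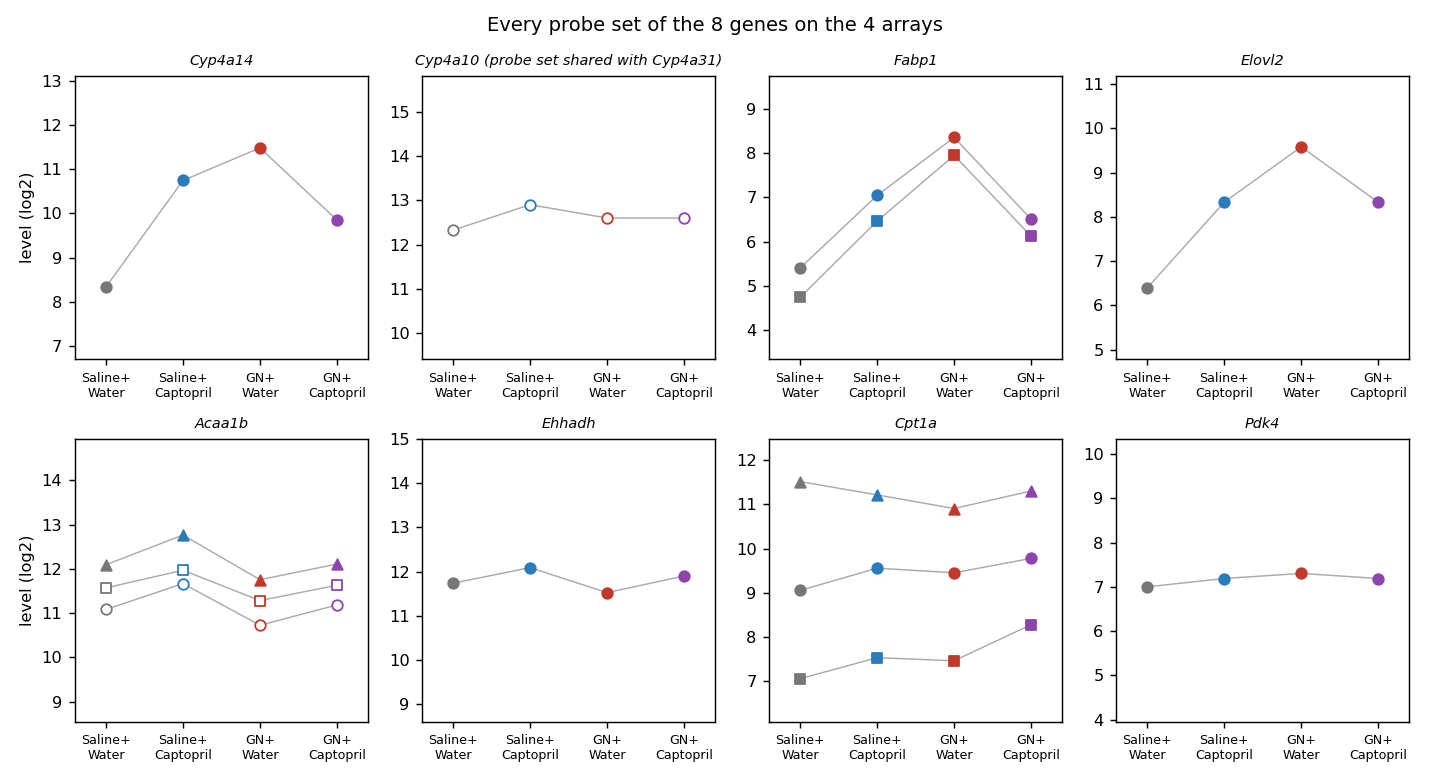
Levels (log2, vertical axis, each panel spanning the same number of log2 units) of every probe set of the 8 genes on the 4 arrays (horizontal axis). Marker shapes separate probe sets, open markers are probe sets annotated to 2 genes, and lines only link the points of a probe set; Cyp4a14, Fabp1 and Elovl2 are lowest on Saline+Water and highest on GN+Water, while Pdk4 stays between 7.0 and 7.30.

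The first comparison asks how GN kidneys differed from saline kidneys in mice on water. On the GN+Water-labelled array, Elovl2 was 9.12-fold, Cyp4a14 8.84-fold and Fabp1 7.73-fold higher than on Saline+Water. The second Fabp1 probe set was at least 8.82-fold higher, a bound taken from the background limit of Saline+Water. These were the genes at least 2-fold higher, 3 of 7, against 10.3% of all 8207 genes, and 0 of 7 were at least 2-fold lower, against 4.42%. Elovl2 stood at rank 23, Cyp4a14 at rank 25 and Fabp1 at rank 29 from the highest difference. Pdk4 was 1.23-fold higher, and Acaa1b 1.26-fold, Ehhadh 1.16-fold and the Cpt1a probe set of highest signal 1.53-fold lower. The median over the 7 genes was 0.30 log2 units, beside 0.00 over all genes.

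These values rest on both arrays that stand apart. Relative to Saline+Captopril in place of Saline+Water, the GN+Water-labelled array was 2.48-fold higher for Fabp1, 2.38-fold for Elovl2 and 1.67-fold for Cyp4a14, and 2.01-fold lower for Acaa1b. The share of all genes past 2-fold in that pair was 2.5% upwards and 1.12% downwards. GN+Captopril exceeded Saline+Water 3.83-fold for Elovl2, 2.85-fold for Cyp4a14 and 2.14-fold for Fabp1, where the share of all genes past 2-fold upwards was 7.8%. Sex-biased kidney genes differed on the GN+Water-labelled array. Slc7a12, known to be higher in females, was at 12.51 there and 7.21 to 8.38 elsewhere, and Acsm3, an androgen-responsive gene, at 6.20 against 12.47 to 12.57. Of the 8 genes of that list, 5 were lowest and 2 highest on this array, beside 30.6% and 27.6% of all 8207 genes. Kap, at 14.38 on both this array and Saline+Water, is not among the 5. Macrophage genes were also higher on it, with a mean log2 level over 8 genes of 10.59 against 8.33 on Saline+Water, 8.35 on Saline+Captopril and 9.83 on GN+Captopril. The part of either in the values of the fatty acid genes was not tested.

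**Figure D2:**
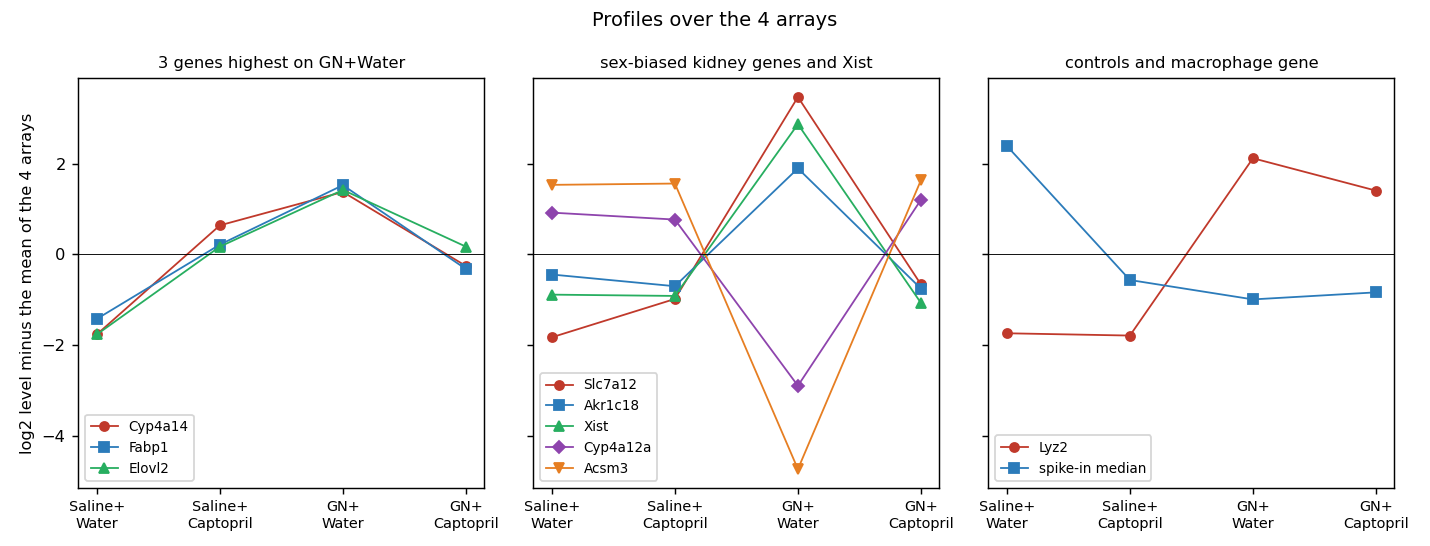
Log2 levels minus the mean of the 4 arrays (vertical axis) by array (horizontal axis) for Cyp4a14, Fabp1 and Elovl2 (left), for sex-biased genes and Xist (middle) and for Lyz2 and the spike-in median (right); lines only link the points. Cyp4a14, Fabp1 and Elovl2 are intermediate on both captopril arrays, whereas Slc7a12, Xist, Cyp4a12a and Acsm3 separate GN+Water from the other 3 arrays and the spike-ins separate Saline+Water.

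The second comparison asks how GN kidneys on captopril differed from GN kidneys on water. Fabp1 was 3.61-fold, Cyp4a14 3.10-fold and Elovl2 2.38-fold lower on GN+Captopril than on the GN+Water-labelled array. The second Fabp1 probe set was 3.55-fold lower. These were 3 of 7 genes at least 2-fold lower, against 1.12% of all genes, and 0 of 7 were at least 2-fold higher, against 1.39%. They ranked 22, 31 and 53 from the lowest of 8207. Ehhadh was 1.30-fold and Acaa1b 1.28-fold higher, and the 3 Cpt1a probe sets were 1.32-fold, 1.25-fold and 1.76-fold higher, all in one direction in this pair. The median over the 7 genes was −0.12 log2 units. No version of this comparison avoids the array with discordant sex-linked transcripts, which it shares with the first.

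The third comparison asks how saline kidneys differed with and without captopril. Cyp4a14 was 5.30-fold, Elovl2 3.83-fold and Fabp1 3.11-fold above Saline+Water on the Saline+Captopril array. The second Fabp1 probe set was at least 3.15-fold higher by the background limit. These 3 of 7 were at least 2-fold higher, against 6.43% of all genes, and 0 of 7 at least 2-fold lower, against 2.08%. Cyp4a14 stood at rank 16 from the highest. Acaa1b was 1.59-fold, Ehhadh 1.28-fold and Pdk4 1.14-fold higher. The median over the 7 genes was 0.67 log2 units, beside 0.01 over all genes. The pair cannot be formed without Saline+Water, the array with discordant spike-ins. Of 7 liver genes with a probe set, 3 were higher on Saline+Captopril (Alb, Apoa1 and Apoa2) and 4 lower (Fgb, Ttr, Tat and Ahsg). Of all genes 50.9% were higher and 47.8% lower. The mean log2 level of the liver genes was 7.83 on Saline+Captopril and 7.71 on Saline+Water. Alb was at 9.34 against 7.48 and Fgb at 5.93 against 7.05. Their part was not tested.

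The fourth comparison asks how GN kidneys differed from saline kidneys in mice on captopril, with neither of the arrays that stand apart. No gene of the 7 was 2-fold higher or lower, with 0 of 7 in each direction, against 0.719% higher and 0.0244% lower of all genes. Cyp4a14 was 1.86-fold lower on GN+Captopril, Acaa1b 1.58-fold, Fabp1 1.45-fold (1.27-fold by its second probe set) and Ehhadh 1.14-fold. Differences were small in this pair, where the central 95% of all genes lay between −0.30 and 0.48 log2 units. Within it Cyp4a14 ranked 3, Acaa1b 11 and Fabp1 24 from the lowest of 8207. At a 1.5-fold threshold Cyp4a14 and Acaa1b, 2 of 7 genes, were lower, against 0.207% of all genes, and 0 of 7 were higher, against 1.85%. The probe set annotated to Cyp4a31 and Cyp4a10 was 1.23-fold lower, and the 2 probe sets of Acaa1b and Acaa1a 1.40-fold and 1.26-fold lower. Cpt1a was 1.06-fold, 1.17-fold and 1.68-fold higher by its 3 probe sets, and the counts use only the first, that of highest signal. For Elovl2 and Pdk4 the difference was 0.00 log2 units. The median over the 7 genes was −0.19 log2 units.

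In the same pair all 7 liver genes with a probe set were lower on GN+Captopril than on Saline+Captopril, where 43.0% of all genes were lower. Their mean log2 level was 7.83 on Saline+Captopril and 7.57 on GN+Captopril. Apoa2 was 1.42-fold and Alb 1.19-fold lower. Proximal tubule genes had a median difference of −0.02 and a range of −0.26 to 0.16. Macrophage genes were higher, with 7 of 8 at least 2-fold higher, against 0.719% of all genes. The mean of 5 adipocyte genes was 7.64 on GN+Captopril against 7.09, with Adipoq at 8.92 against 7.77. Fabp4 was at 11.31 against 10.58, Cidec at 6.06 against 5.03 and Retn at 7.89 against 7.81. Lep went the other way, at 4.02 against 4.25, and was near background on both arrays. Cidec and Lep did not pass the expression filter. The part of any of these gene groups in the lower Cyp4a14, Acaa1b and Fabp1 values was not tested.

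**Figure D3:**
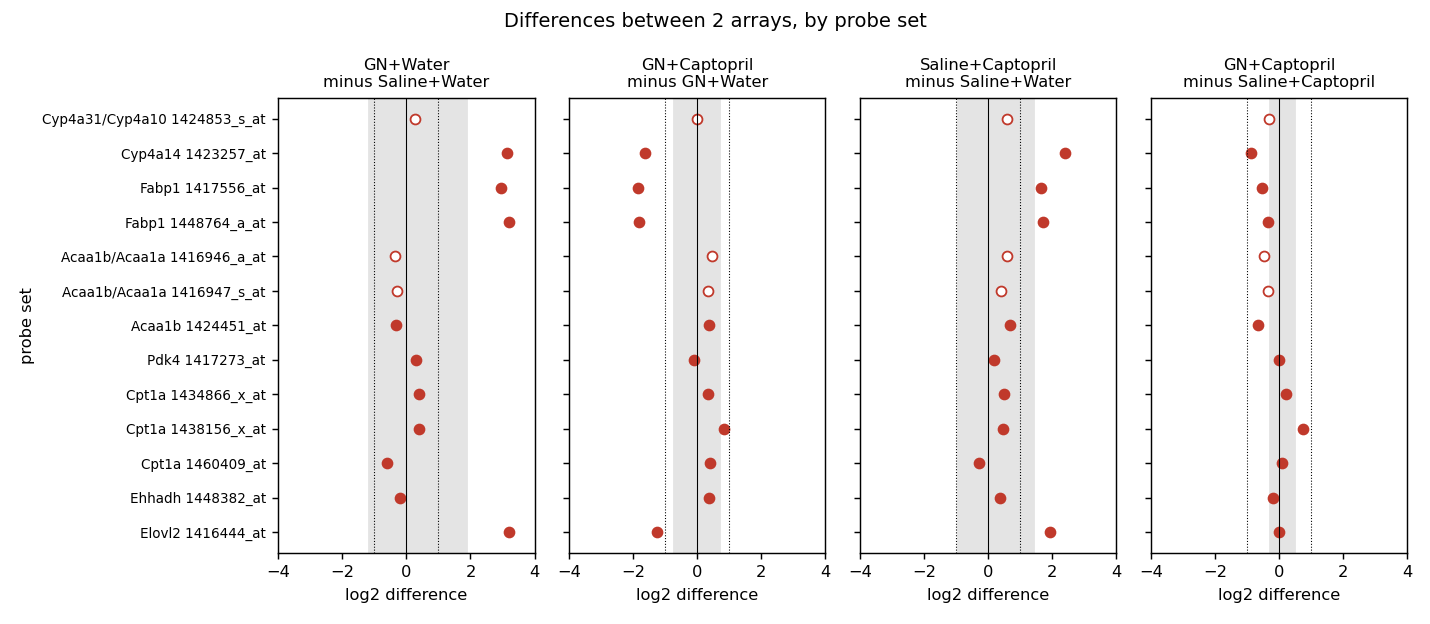
Log2 difference (horizontal axis) for each probe set of the 8 genes (vertical axis) in the 4 comparisons; open circles are probe sets annotated to 2 genes, the grey band holds the central 95% of 8207 genes and dotted lines mark a 2-fold difference. Cyp4a14, Fabp1 and Elovl2 lie outside the band in the first 3 panels, and Cyp4a14, Acaa1b and Fabp1 lie to its left in the last, while the Cpt1a probe set 1438156_x_at lies to the right of the band in the second and the last.

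Cyp4a14, Fabp1 and Elovl2 had the widest contrasts of these genes between the GN differences with and without captopril. The contrast contains the difference of the first comparison with its sign reversed, so it is no separate result. For Elovl2, whose captopril arrays had the same value, it is that difference alone. The GN difference on captopril minus that on water was −4.04 log2 units for Cyp4a14, −3.49 for Fabp1 and −3.19 for Elovl2. It was −0.32 for Acaa1b, −0.30 for Pdk4 and 0.02 for Ehhadh, and 0.70, −0.18 and 0.34 for the 3 Cpt1a probe sets. This quantity uses all 4 arrays and has no error with 1 array per group.

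Among other genes of fatty acid metabolism, 117 were listed in 11 groups by role, 106 had a probe set and 95 passed the expression filter. On the GN+Water-labelled array relative to Saline+Water, 9 of 95 (9.47%) lay 2-fold or more above and 11 (11.6%) below, beside 10.3% and 4.42% of all genes, with a median of −0.17 log2 units. With Saline+Captopril as the baseline 3 were higher and 9 lower, beside 2.5% and 1.12% of all genes. On GN+Captopril relative to the GN+Water-labelled array 11 (11.6%) were higher and 5 (5.26%) lower, beside 1.39% and 1.12% of all genes, with a median of 0.11. That pair uses the array whose sex-linked transcripts go against its male label. Cyp4a12a, known to be male-specific, is among the 11. The part of sex in these counts was not tested. In saline kidneys 4 (4.21%) were higher on captopril and 2 (2.11%) lower, beside 6.43% and 2.08% of all genes, with a median of 0.03. Between Saline+Captopril and GN+Captopril 0 of 95 passed in either direction, beside 0.719% higher and 0.0244% lower of all genes, and the median was −0.02. At 1.5-fold there, 1 was higher, Angptl4 at 1.63-fold, and 1 lower, Srebf1 at 1.59-fold, beside 1.85% and 0.207% of all genes. Angptl4, which encodes an inhibitor of lipoprotein lipase, was at 9.39 on GN+Captopril and 8.69 to 8.87 elsewhere. Srebf1, which encodes a transcription factor of lipid synthesis, was at 7.87 on GN+Captopril and 7.83 on the GN+Water-labelled array, below 8.43 on Saline+Water and 8.55 on Saline+Captopril.

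**Figure D4:**
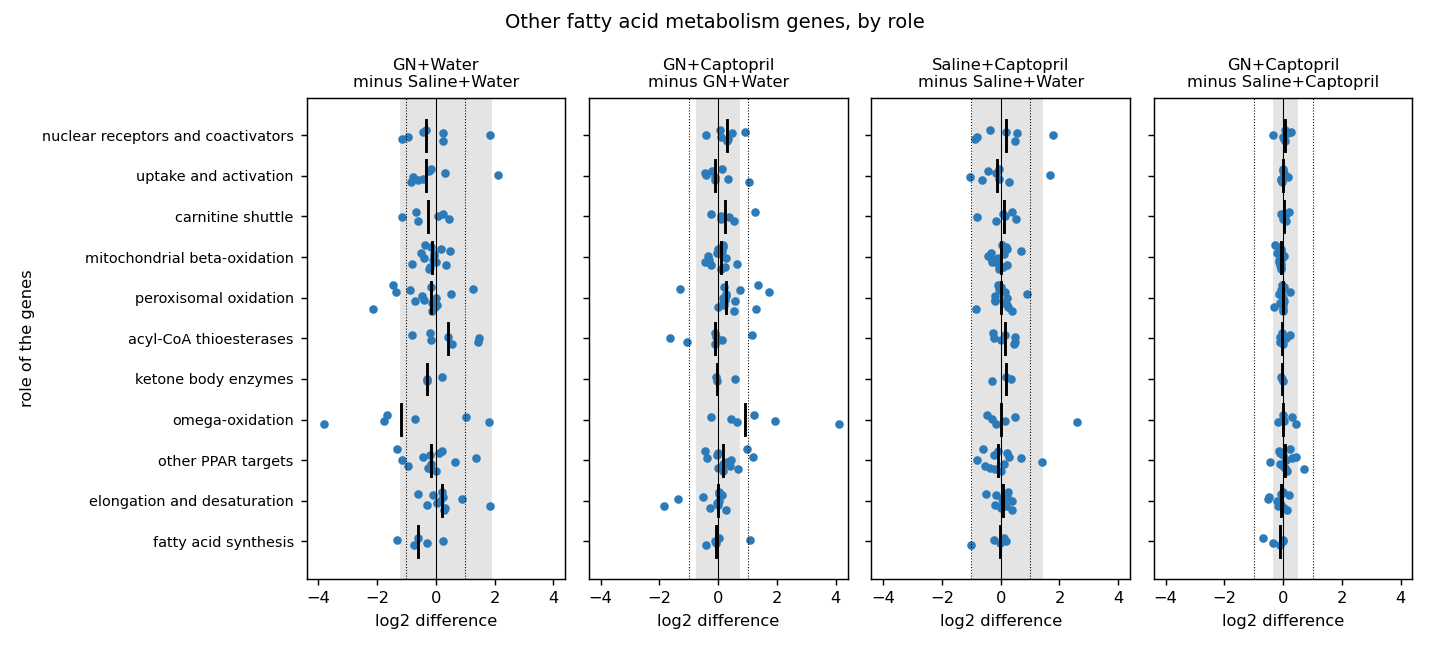
Log2 differences (horizontal axis) of 95 other genes of fatty acid metabolism, grouped by role (vertical axis), in the 4 comparisons; each point is a gene, the black bar is the group's median, the grey band holds the central 95% of 8207 genes and dotted lines mark a 2-fold difference. No point of the last panel reaches 2-fold, and omega-oxidation genes spread the most in the first.

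Ppara, the gene of PPAR-alpha, was at 9.43 on Saline+Water, 9.92 on Saline+Captopril, 9.68 on the GN+Water-labelled array and 9.99 on GN+Captopril. Its partner gene Rxra had a level of 10.06 on Saline+Water, against 8.90 to 9.21 elsewhere, and Rxrb at 10.32 against 9.39 to 9.50. The coactivator gene Ppargc1a went the other way, with 7.54 on Saline+Water against 8.96 to 9.40 elsewhere. Lpin1, another coactivator gene, was lowest on the GN+Water-labelled array, at 8.85 against 9.29 to 9.74.

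Some relatives of Cyp4a14 among the omega-oxidation genes differed in the opposite direction. Cyp4a12a, the fatty acid hydroxylase known to be male-specific in mouse kidney, was at 7.49 on the GN+Water-labelled array and at 11.30, 11.15 and 11.59 on Saline+Water, Saline+Captopril and GN+Captopril. It was 14.1-fold lower there than on Saline+Water, while Cyp4a14 was 8.84-fold higher. Cyp4b1 was at 12.24 on that array and 13.99 to 14.17 on the others. Between Saline+Captopril and GN+Captopril, Cyp4a12a differed 1.35-fold and Cyp4b1 1.02-fold.

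Peroxisomal oxidation genes had a median difference of −0.15 log2 units between the GN+Water-labelled array and Saline+Water, with 3 of 15 (20.0%) at least 2-fold lower and 1 (6.67%) higher, beside 4.42% and 10.3% of all genes. Acox3, an acyl-CoA oxidase, was 4.44-fold lower (2.46-fold relative to Saline+Captopril). Ephx2, the soluble epoxide hydrolase, was 2.76-fold and Amacr, a racemase of branched chains, 2.56-fold lower. Acyl-CoA thioesterases, which release free fatty acids, had 2 of 7 (28.6%) at least 2-fold higher, beside 10.3% of all genes, Acot7 at 2.79-fold and Acot3 at 2.74-fold (1.98-fold relative to Saline+Captopril). All 5 of these genes had their extreme value on the GN+Water-labelled array, and between Saline+Captopril and GN+Captopril each was within 1.18-fold.

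Of 14 mitochondrial beta-oxidation genes, 0 were at least 2-fold apart in any of the 4 comparisons. The shares of all genes higher and lower were 10.3% and 4.42% in the first and 1.39% and 1.12% in the second. They were 6.43% and 2.08% in the third and 0.719% and 0.0244% in the fourth. At such shares a count of 0 among few genes says little. Acads, a short-chain dehydrogenase, was at 9.79 on the GN+Water-labelled array and 10.43 to 10.60 on the others. Etfa, an electron carrier subunit, had 11.69 on Saline+Water, against 12.18 to 12.38 elsewhere. Eci1, an enoyl-CoA isomerase, was at 11.22 on Saline+Water against 10.68 to 10.89. In the carnitine shuttle, Crot was at 10.82 on the GN+Water-labelled array against 11.48 to 12.07, Cpt2 at 10.84 against 11.27 to 11.44, and in uptake Cd36, a fatty acid translocase, was at 10.11 against 10.95 to 11.22. Crat, a carnitine acetyltransferase, and Slc27a4, a fatty acid transporter, were highest on Saline+Water, at 9.69 against 8.55 to 8.93 and at 9.36 against 8.33 to 8.60. Acsl4, which activates fatty acids, was instead low on Saline+Water, at 6.71 against 8.41 to 8.84. For Acat1, Oxct1 and Bdh1, the 3 ketone body genes measured, 0 were 2-fold apart in the 4 comparisons, beside the same shares of all genes.

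Elongation and desaturation genes did not follow Elovl2 as a group. Elovl6, which lengthens saturated chains, was at 9.63 on the GN+Water-labelled array and 7.77 to 7.94 on the others, without the low Saline+Water value of Elovl2. Elovl5, the nearest in function, was between 9.89 and 10.21 on all 4 arrays. Scd1, a desaturase, was at 11.55 on the GN+Water-labelled array and 10.18 to 10.69 elsewhere. Of other genes known as PPAR targets, Vnn1 was at 9.93 on Saline+Water and highest on Saline+Captopril, at 11.33, with 10.58 on the GN+Water-labelled array and 10.88 on GN+Captopril, and Slc25a42, a mitochondrial coenzyme A carrier, was lowest on the GN+Water-labelled array, at 8.08 against 8.81 to 9.41. Txnip, a regulator of glucose uptake, was at 10.01 on Saline+Water, 10.69 on Saline+Captopril and 11.37 on the GN+Water-labelled array, and was 1.24-fold higher on GN+Captopril than on Saline+Captopril, with the same highest and lowest array as Cyp4a14. In fatty acid synthesis, Me1, which supplies NADPH, was at 10.96 on that array against 12.05 to 12.28, and Acacb, an acetyl-CoA carboxylase, at 7.79 on Saline+Water against 6.66 to 7.06.

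The genes whose profile over the 4 arrays was nearest to each of the 7 were found by the root mean square distance between mean-centred log2 values, among 8207 genes. For Cyp4a14 they were Fabp1 (0.285), Mme (0.299) and Elovl2 (0.318). For Fabp1 they were Cldn1 (0.255), Cyp4a14 and Nap1l5 (0.294), and for Elovl2 B3galnt1 (0.177), Cdh11 (0.219) and Tubb2b (0.231). No gene came within 0.1 of these 3. The order of arrays they share, lowest on Saline+Water and highest on the GN+Water-labelled array, was held by 20.6% of all genes and by 4 of the 7, Pdk4 being the other. For Acaa1b the nearest were Akr1d1 (0.101), Frrs1 (0.118) and the liver gene Apoa2 (0.122). For Ehhadh they were Cutc, Gamt and Ptp4a3, within 0.024 and among 87 genes within 0.1. Pdk4 and Cpt1a had 1155 and 461 genes within 0.1, so the nearest of these (Trappc3, Pfn1 and Sugt1, and Igf1r, Nudt6 and Tbc1d17) single out little. Likeness over 4 arrays is a description only.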

How the data were processed

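Affymetrix arrays were hybridised with biotin-labelled cRNA made from 6 µg of kidney RNA, per the labels' protocols. The authors deposited 1 value per probe set and array, for 22690 probe sets on 4 arrays, and the range of these values is that of a log2 scale. GCOS and RMA are named, without version or role, in the submitters' processing notes. How background and scale were corrected, and on which genome build, is not given in the sources used here. Array medians were 6.93 to 6.99; having 1 array per group is what limits precision.

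Values were used as deposited. Gene symbols came from the platform annotation and were updated by Entrez ID (RefSeq gene table, GRCm38.p6): 20393 probe sets had 1 symbol, 691 several and 1606 none. A gene was represented by its single-symbol probe set of highest mean, and passed the filter when that mean reached the 40th percentile, 6.27, which 8207 of 12394 genes did. All 7 of the studied genes with such a probe set passed; Fabp1 was under that level on Saline+Water. Differences between 2 arrays were taken with Python 3.11.15 and pandas 2.3.3, and alternative scalings with limma 3.58.1. The difference step was run on simulated data with known differences. That checks the calculation only, since no array that stands apart was simulated. With 1 array per group no p-value or error was computed.

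The genes, gene lists and alternatives were chosen with earlier results of these data known. Named genes were the 8 studied genes, Ppara, the widest-ranging genes of each pathway list and the 3 nearest profiles. Marker genes were named where their values stand beside a result. Angptl4, Elovl5 and Lpin1 were chosen after their values were seen. Alternatives were median centring, quantile normalisation, cyclic loess, other filters, fold thresholds and probe set choices, replacing either array that stands apart, and means for medians. One more, adding the probe set of Cyp4a31 and Cyp4a10, was chosen after seeing the data.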

Additional observations from a re-analysis of the deposited data

Results flagged for a closer look

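Captopril and GN differences of some genes had opposite directions on the 2 sides of the design, each by at least 1.5-fold; the difference between them was not tested, since each side is 1 pair of arrays. For Cyp4a14 the GN difference was −0.90 log2 units on captopril and 3.14 on water. Its captopril difference was −1.63 in GN mice and 2.41 in saline mice. For Fabp1 the captopril difference was −1.85 in GN mice and 1.64 in saline mice, and for Elovl2 −1.25 and 1.94. In the other direction, Acox3 had a captopril difference of 1.30 in GN mice and −0.85 in saline mice, and Slc25a42 of 0.96 and −0.60. Each captopril contrast uses the GN+Water-labelled array on its GN side and Saline+Water on its saline side. The GN contrast of Cyp4a14 uses both of these arrays on its water side. The 2 Cyp4a14 contrasts are the same quantity, −4.04 log2 units, written in 2 ways.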

How the results depend on the processing

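With 1 array per group the depth of replication is the main limit, and a value was taken as moved when it shifted by 1.5-fold. It was taken as reversed only when it was at least 2-fold and changed sign, so sign changes of smaller differences are not among the reversed. No paired analysis was possible because each group has 1 array and the labels give no replicate numbers. Median centring and quantile normalisation moved 0 of 215 results. Array medians lay between 6.93 and 6.99, so centring could hardly shift a value by 1.5-fold, and its 0 is no sign of robustness. Whether the deposited values were already quantile normalised is not given, so that 0 says little either. Cyclic loess and leaving out probe sets with an s, x or a suffix moved 1 each. Averaging the probe sets of a gene moved 5, among them Cpt1a in the first comparison, at 0.07. Leaving out the expression filter moved 0 of 16, a filter at the 60th percentile 1 of 16, and adding the Cyp4a31 and Cyp4a10 probe set 0 of 16. Replacing Saline+Water moved 20 and reversed 1 of 52, and replacing the GN+Water-labelled array moved 17 and reversed 5 of 52. A 1.5-fold threshold moved 12 of 24, a 3-fold threshold 8 of 24, and means for medians 1 of 8. The mean over the 7 genes was 1.20 in the first comparison, where the median was 0.30. Other pathway genes at least 2-fold apart in that comparison numbered 20, and 12 when Saline+Captopril replaced Saline+Water, 4 with GN+Captopril in place of the GN+Water-labelled array, 37 at 1.5-fold and 8 at 3-fold. At 3-fold 5 in place of 16 passed between the GN arrays, and between the saline arrays 3 in place of 6, or 16 at 1.5-fold. Between the captopril arrays 2 pathway genes and 2 of the 7 genes passed at 1.5-fold, in place of 0. With Saline+Captopril as the baseline Cyp4a31 reversed to −0.79. With GN+Captopril in place of the GN+Water-labelled array, Acot7 (−0.14), Amacr (0.38), Cyp4a12a (0.28), Cyp4b1 (0.18) and Elovl6 (−0.0004) reversed. Smaller differences of the first comparison changed sign as well. Examples are Vnn1, from 0.64 to −0.76 with Saline+Captopril as the baseline, and Cd36, from −0.84 to 0.23 with GN+Captopril as the replacement. The cause was not tested.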
